A study of Mus musculus with 12 samples.

Results

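The response of Oct4-deficient smooth muscle cells to an oxidized phospholipid was examined on 6 arrays: siOCT4-POVPC replicates 1 to 3 against siOCT4-DMSO replicates 1 to 3, out of 12 arrays in the series. Members were chosen by their sample titles alone, and all probes of the array entered. The cells were primary mouse aortic smooth muscle cells (MASMC), not yet confluent. Without serum, they received Oct4 siRNA over 48 h. Exposure to DMSO as vehicle, or to 10 µg/mL POVPC, took a further 24 h. The other 6 arrays hold cells that received a non-target siRNA (siNT) and the same 2 treatments. The labels do not give the age or strain of the mice and do not say whether replicates were separate isolations, so the spread between replicates may be technical. A knockdown leaves part of the target RNA in place. The paper checked its efficiency by quantitative RT-PCR. Its depth on these arrays was not measured here, because Pou5f1, the gene of Oct4, has no named probe. Of the markers that define smooth muscle, Tagln (transgelin, an actin-binding protein) and Smtn (smoothelin) have a named probe, well above background on 5 and on 6 of the 6 arrays, respectively. The Tagln signal was low, under the median of each array. Acta2, Myh11 and Cnn1 have none. Cdh5, Pecam1 and Ptprc, which would mark endothelial cells and leukocytes, have no named probe either.

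POVPC is a truncated product of the oxidation of arachidonoyl phosphatidylcholine that accumulates in atherosclerotic lesions. In smooth muscle cells it lowers contractile genes and promotes migration and matrix production, a change of state called phenotypic transition. Oct4 is a pluripotency factor that smooth muscle cells of lesions switch on again, and POVPC is a known inducer of it. Sterol-poor membranes release SREBP factors from the endoplasmic reticulum, and these switch on the enzymes of cholesterol and fatty acid synthesis. Long non-coding RNAs (lncRNA) that lie antisense to a gene can act on that gene in either direction or not at all.

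The arrays were not alike in quality and position. Between 51223 and 52445 probes were well above background on the siOCT4-DMSO arrays and between 49015 and 49472 on the siOCT4-POVPC arrays, and no probe was saturated. The 3 POVPC arrays lay close together, with a median SD between replicates of 0.14 on the log2 scale, against 0.319 for the 3 DMSO arrays. Among the DMSO arrays replicate 3 stood apart. It correlated with the other 5 arrays at 0.948 to 0.957 across probes, whereas replicates 1 and 2 correlated with each other at 0.985. With the POVPC arrays replicate 1 correlated at 0.986 to 0.988 and replicate 2 at 0.972 to 0.975. DMSO replicate 3 was also the only DMSO array on slide 2, which held all 3 POVPC arrays, and DMSO replicates 1 and 2 were on slide 1. Without replicate 3, slide and treatment cannot be told apart, and within slide 2 the comparison rests on replicate 3 alone. The gene lists are therefore given with all 6 arrays, without DMSO replicate 3 and within slide 2. The fit within slide 2 assumes that the lone DMSO array varies like the POVPC arrays, against the spreads just given, and so its medians and values are given for the lists as a description, with no count of probes past a threshold.

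Across the array, few differences with POVPC passed after adjustment. Of 20625 mRNA probes tested with limma, 1 passed both the adjusted threshold (0.05, Benjamini-Hochberg) and the limit of 1.5-fold, a share of 0.00485%, and of 33880 lncRNA probes 0 were called, with a smallest adjusted p of 0.0636. The called probe, ASMM10AP1B111500473V4, cannot be named here. Its log2 signal was 2.90, 2.38 and 2.58 in DMSO and 4.44, 5.15 and 4.81 in POVPC, so that all POVPC arrays were above all DMSO arrays. The probe cleared background on 0 of 3 DMSO arrays and on 3 of 3 POVPC arrays, where it was at least 2.52-fold higher (adjusted p = 0.0107). It thus entered the test through the arrays on which it was high, and 0 probes were called when all 12 arrays had to clear background. With normexp background correction, a fit of the 2 groups alone, an intensity trend or replicate as a block, 0 mRNA probes were called. With 1 array left out, the adjusted p of this probe from limma ranged from 0.00616 to 0.134. On the 6 siNT arrays it lay between 2.33 and 2.38, near the floor of the signal scale, and no fold is given there. When p was not adjusted, 935 mRNA probes (4.53%) were higher and 1247 (6.05%) lower by 1.5-fold or more with p under 0.05, and 1048 lncRNA probes (3.09%) were higher and 1675 (4.94%) lower. With scaling to the 75th percentile the split was 870 higher and 1957 lower for mRNA and 885 higher and 3340 lower for lncRNA probes. The methods' t-test after Benjamini-Hochberg adjustment left 0 mRNA and 3 lncRNA probes. The 3 POVPC arrays all lay above the 3 DMSO arrays for 14.6% of mRNA probes and all below them for 13.2%. For lncRNA probes the shares were 11.9% and 11.8%. Leaving out DMSO replicate 3 gave unadjusted shares of 2.98% higher and 4.88% lower for mRNA and of 2.82% and 4.97% for lncRNA, and slide 2 alone gave 17.9% and 18.1% for mRNA and 15% and 16% for lncRNA, shares that rest on that assumption. The shares from all 6 arrays are the background against which the genes below are read, and none of the named genes passed the adjusted threshold. In bulk samples such as these, fewer cells of a type and less RNA per cell cannot be told apart.

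**Figure D1:**
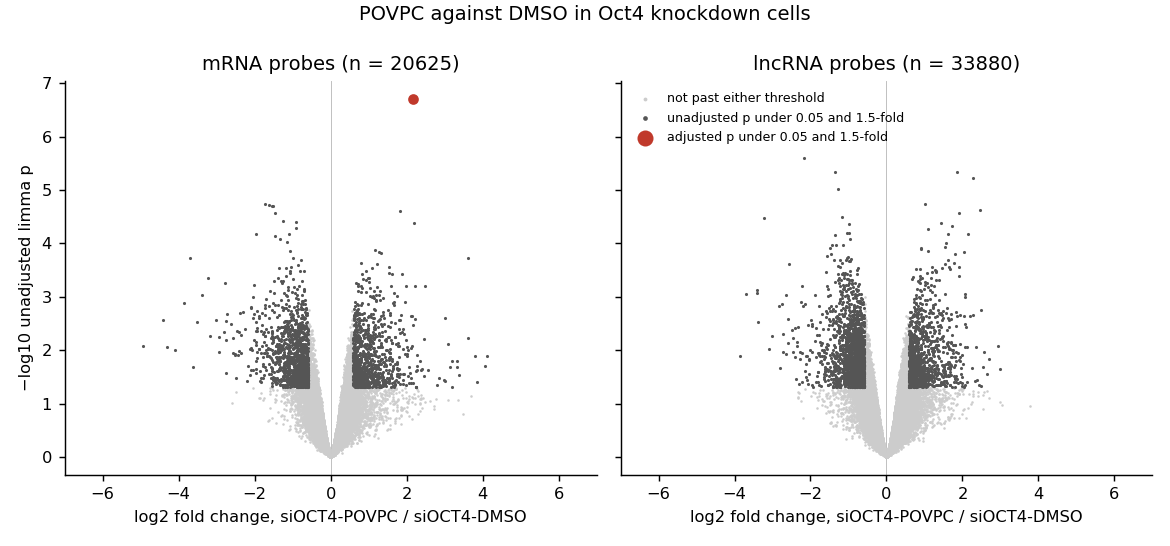
Each point is a probe, with its log2 fold change (siOCT4-POVPC over siOCT4-DMSO) on the horizontal axis and −log10 of its unadjusted limma p on the vertical axis, for mRNA probes (left) and lncRNA probes (right). The single red point is the 1 probe of 54505 that passed the adjusted threshold, drawn at its measured difference from DMSO arrays on which it did not clear background, so that only the bound of at least 2.52-fold is given for it.

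Names were at hand for 923 mRNA and 391 lncRNA probes, because the array files give probe names only. Of these, 857 mRNA and 298 lncRNA probes were listed by the study as changed by POVPC in siNT cells, and the others come from its tables of antisense pairs, so the named genes are a selected set. Those tables include pairs chosen in whole or in part on the siOCT4 arrays. The paper counts more mRNAs and lncRNAs as changed by POVPC in siNT cells than these, so its lists are covered only in part. All 298 lncRNA probes were listed as higher and none as lower. The siNT samples are separate from the 6 arrays compared here. Of 443 mRNA probes listed as higher with POVPC in siNT cells, 314 were higher in knockdown cells. Of the 443, 104 (23.5%) passed the unadjusted threshold upward and 2 (0.451%) downward. Of 414 listed as lower, 313 were lower in knockdown cells, and of the 414 there were 121 (29.2%) that passed downward and 0 (0%) upward at that threshold, while no named probe passed after adjustment in limma. The median log2 fold change in knockdown cells was 0.26 for the first set and -0.31 for the second, against 0.89 and -0.89 in siNT cells, values that had chosen the sets. Without DMSO replicate 3 the medians were 0.36 and -0.36, and within slide 2 they were 0.17 and -0.28. Within slide 2 the split was less one-sided, with 56.2% of the first set and 34.5% of the second higher, against 70.9% and 24.4% on all 6 arrays.

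The genes of cholesterol synthesis were the group furthest from the array's median. Of 22 genes on the list, 8 had a named probe, all listed as higher in siNT cells, and all 8 were higher with POVPC in knockdown cells. 7 of the 8 passed the unadjusted threshold upward and had no overlap between the groups, and the median log2 fold change of all 8 was 1.38, where the median of all tested mRNA probes was 0.00. After removal of DMSO replicate 3, the median was 0.97 with 3 of 8 past the threshold, and within slide 2 it was 2.25. In this pathway acetyl units are joined to HMG-CoA and reduced to mevalonate, which is phosphorylated, condensed to squalene, closed to lanosterol and trimmed to cholesterol.

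Tm7sf2, a sterol C14-reductase of the last steps (chromosome 19, 6062821 to 6067842, minus strand), showed the largest difference. Its log2 signal was 8.00, 6.51 and 5.35 in DMSO and 10.65, 9.91 and 10.15 in POVPC. The groups did not overlap, DMSO replicate 3 was the lowest array, and the DMSO arrays spanned a wider range than the POVPC arrays. The log2 fold change was 3.62 (SE 0.66, 12.3-fold, adjusted p = 0.177 from limma) and 2.98 without DMSO replicate 3. Mvk, mevalonate kinase (chromosome 5, 114444286 to 114460477, plus strand), stood at 5.97, 5.75 and 4.79 in DMSO and at 7.90, 7.41 and 7.59 in POVPC, a log2 fold change of 2.13 (SE 0.54, adjusted p = 0.235). Its DMSO replicates 1 and 2 were close to each other and replicate 3 was lowest, below all POVPC arrays. Mvd, which decarboxylates mevalonate diphosphate, differed by 1.55 (SE 0.50), and Pmvk, the kinase before it, by 1.20 (SE 0.51). Hsd17b7, a 3-ketosteroid reductase of the late pathway, differed by 1.75 (SE 0.63), Lss, the lanosterol synthase, by 1.12 (SE 0.42) and Erg28, a scaffold of the C4 demethylation enzymes, by 1.06 (SE 0.36). Hmgcs1, HMG-CoA synthase, was 8.79, 9.57 and 8.43 in DMSO and 10.11, 9.73 and 9.33 in POVPC. Its groups overlapped, because DMSO replicate 2 was above POVPC replicate 3, and its log2 fold change was 0.80 (SE 0.49, adjusted p = 0.492). In 7 of these genes the fold change was larger in siNT cells, where it had chosen them, than in knockdown cells, and in Tm7sf2 it was smaller. The interaction of treatment and knockdown did not pass for any of the 8, with a difference of -1.07 (SE 0.77, adjusted p = 0.725) for Mvk and 1.24 (SE 0.93, adjusted p = 0.741) for Tm7sf2.

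The sequences upstream of these genes are shown because SREBP factors bind sterol elements together with NF-Y, which binds CCAAT. Each window ends at a RefSeq start, which for Mvk lies slightly before the start given above. The 250 bases before the start of Mvk and Hmgcs1, 5′ to 3′ on the strand of the gene, come from RefSeq (GRCm38.p6), at chr5:114444019-114444268 (plus strand) and chr13:119690101-119690350 (plus strand), with matches to CCAAT and to TCACNCCAC, each on both strands, in capitals.
Mvk: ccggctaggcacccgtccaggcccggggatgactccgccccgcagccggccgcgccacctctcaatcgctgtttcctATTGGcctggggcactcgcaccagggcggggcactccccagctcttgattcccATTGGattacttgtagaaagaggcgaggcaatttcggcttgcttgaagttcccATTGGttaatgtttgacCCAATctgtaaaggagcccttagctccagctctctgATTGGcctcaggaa
Hmgcs1: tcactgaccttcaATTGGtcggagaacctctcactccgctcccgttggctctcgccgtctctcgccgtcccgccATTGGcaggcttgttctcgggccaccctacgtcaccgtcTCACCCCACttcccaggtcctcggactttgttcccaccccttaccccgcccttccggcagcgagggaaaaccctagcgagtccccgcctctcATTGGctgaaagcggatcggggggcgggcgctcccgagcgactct
The Mvk window held 5 matches to CCAAT and the Hmgcs1 window 3, beside 1 match to TCACNCCAC. The windows shown are not typical: on both lists, Mvk had the most CCAAT matches and Hmgcs1 the only TCACNCCAC. The window of Tm7sf2, the gene with the largest difference, held 1 CCAAT and that of Erg28 held 0. At least 1 CCAAT stood in 7 of the 9 upstream windows of the 8 cholesterol genes and 1 TCACNCCAC in 1 of 9, whereas 33.8% and 1.05% of all 32851 upstream windows held them. On the fatty acid list below, 4 of 7 windows of 7 genes held CCAAT and 0 held TCACNCCAC. The matches shown do not overlap each other. A match is a description of the letters, and binding was not measured.

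Genes that make, desaturate and place fatty acids in phospholipids followed. On this list of 28 genes, 11 probes of 10 genes were named, all listed as higher in siNT cells, and 10 of the 11 were higher, with 6 past the unadjusted threshold upward, 0 downward and a median of 0.73. With DMSO replicate 3 left out, 5 passed and the median was 0.53, and within slide 2 it was 1.19. Scd1 also belongs to the pairs below, which were chosen on these arrays, and without it 5 of 10 passed upward with a median of 0.63. Scd1, stearoyl-CoA desaturase, was 15.37, 14.91 and 14.21 in DMSO and 16.65, 16.32 and 16.36 in POVPC. All POVPC arrays were above all DMSO arrays, and the log2 fold change was 1.61 (SE 0.49). No probe of those pairs had overlap between the groups. Fads2, a desaturase of polyunsaturated fatty acids, differed by 1.59 (SE 0.42), and Scd4, another stearoyl-CoA desaturase of the same cluster on chromosome 19, by 1.37 (SE 0.35). Scd1 and Scd4 are close relatives, and whether their probes cross-hybridise was not tested. Lpcat3, which puts polyunsaturated chains into lysophospholipids, differed by 0.88 (SE 0.23) and Pcyt2, of phosphatidylethanolamine synthesis, by 0.73 (SE 0.31). Acss2, which makes acetyl-CoA from acetate, had 2 probes that disagreed in size, with log2 fold changes of 2.13 (SE 0.67) and 0.52 (SE 0.30). Acsbg1, an acyl-CoA synthetase, was 7.56, 7.64 and 8.41 in DMSO and 7.13, 7.50 and 7.45 in POVPC. It was the only member of the list lower in knockdown cells, by 0.51 on the log2 scale (SE 0.24), where siNT cells gave 0.72, and the interaction of -1.23 (SE 0.34) had an adjusted p of 0.562.

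**Figure D2:**
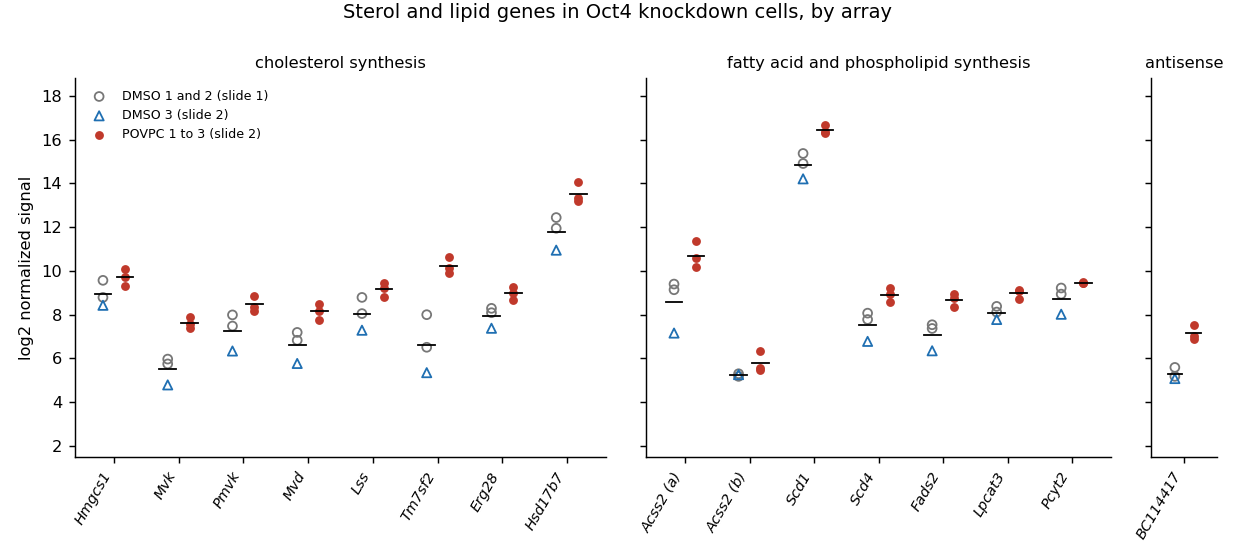
Log2 normalized signal of sterol and lipid genes and of the antisense RNA BC114417 on each siOCT4 array (grey circles, DMSO 1 and 2; blue triangles, DMSO 3; red, POVPC 1 to 3; bars, group means); (a) and (b) are separate probes of Acss2. POVPC arrays lie above all DMSO arrays in every gene shown other than Hmgcs1, and DMSO 3 is the lowest array in every gene shown other than Acss2 (b).

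The lncRNA BC114417 is encoded opposite to Scd1, at 44396324 to 44396927 on the plus strand of chromosome 19, inside the span of Scd1 on the minus strand (44394451 to 44407709). It was 5.59, 5.18 and 5.08 in DMSO and 7.51, 6.88 and 7.03 in POVPC. The groups did not overlap, and the log2 fold change was 1.86 (SE 0.23), with 1.75 without DMSO replicate 3 and 2.06 within slide 2. In siNT cells it was 2.30. BC114417 and Gm13713 are members of the pairs chosen on these arrays. Their lack of overlap is therefore not a separate result, and no test of them is given. The probes of 5 antisense and intergenic lncRNAs described here follow, 5′ to 3′, because each 60-base probe defines what was measured.
BC114417: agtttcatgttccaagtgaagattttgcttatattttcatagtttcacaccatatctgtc
Gm13713: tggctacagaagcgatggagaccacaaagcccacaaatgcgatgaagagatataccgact
mouselincRNA0231: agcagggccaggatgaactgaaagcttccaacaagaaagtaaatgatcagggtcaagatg
AK044182: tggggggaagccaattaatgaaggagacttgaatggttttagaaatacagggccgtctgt
I730028E13Rik: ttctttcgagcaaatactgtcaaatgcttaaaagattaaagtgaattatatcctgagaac
Gm13713 lies antisense to Lrrc55 on chromosome 2. It was 5.21, 3.71 and 4.45 in DMSO and 6.56, 6.09 and 6.42 in POVPC, without overlap, a log2 fold change of 1.90 (SE 0.38). The intergenic mouselincRNA0231 (chromosome 11, 16590847 to 16597497) was 3.72, 4.26 and 2.38 in DMSO and 5.50, 5.13 and 5.43 in POVPC, a log2 fold change of 1.90 (SE 0.36, adjusted p = 0.187). Its DMSO replicate 3 was the lowest of the 6 arrays, and the fold change without it was 1.37. AK044182, intergenic on chromosome X, had the same pattern, with 2.06 (SE 0.65) on all arrays and 1.19 without DMSO replicate 3. I730028E13Rik, intergenic on chromosome 9, cleared background on 0 of 3 DMSO arrays, and POVPC arrays were at least 2.08-fold higher (adjusted p = 0.117). The Gap43 lncRNA, an exon sense-overlapping transcript of the gene for a growth cone protein, differed by 1.90 (SE 0.28, adjusted p = 0.0993).

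Of the 298 named lncRNA probes listed as higher in siNT cells, 55 (18.5%) passed the unadjusted threshold upward in knockdown cells and 3 (1.01%) downward, with a median of 0.12. These are part of the lncRNAs that the paper counts as higher, and those it counts as lower are not in this set. Without DMSO replicate 3 the median was 0.39, with 89.3% of the probes higher, and within slide 2, where replicate 3 is the lone DMSO array, it was -0.37, with 38.9% higher. By class in the study's table, the median was 0.57 for the 10 bidirectional probes, 0.26 for 5 intron sense-overlapping and 0.25 for 103 exon sense-overlapping probes. It was 0.17 for 45 natural antisense and -0.01 for 109 intergenic and for 26 intronic antisense probes. Of the named lncRNAs measured in both groups, BC028549, antisense to Myh10, was the lowest relative to DMSO, at 7.63, 8.95 and 10.85 in DMSO and 6.88, 6.52 and 6.62 in POVPC, a log2 fold change of -2.47 (SE 0.81, adjusted p = 0.278). DMSO replicate 3 was its highest array, and the value was -1.62 without it. Trmt61b and AK156145 were also lower on every POVPC array, but were not well above background on any of them, so no fold is given.

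The study lists 23 antisense pairs for this comparison, made of 22 lncRNA and 23 mRNA probes. They were chosen on these 6 arrays, and so their values are given with no test. All 22 lncRNA and all 23 mRNA probes were without overlap between the groups, so a lack of overlap is not a separate result for any of them. In 17 pairs the lncRNA was natural antisense, overlapping an exon of the gene on the other strand, and in 6 it was intronic antisense. Both members were higher in 13 pairs, both lower in 5 and opposite in 5. Of the pairs that were higher together, Hoxb5 and its antisense Hoxb5os lie on chromosome 11, where the Hoxb genes set position along the body axis. Hoxb5 was 5.35, 3.76 and 3.60 in DMSO and 5.77, 6.24 and 6.07 in POVPC (log2 fold change 1.79, SE 0.56), and Hoxb5os was 5.83, 4.38 and 5.31 in DMSO and 6.58, 6.92 and 6.16 in POVPC (1.38, SE 0.48). In both, DMSO replicate 1 was the DMSO array nearest to POVPC. Hoxb3os and Hoxb3, in the same cluster, differed by 1.36 (SE 0.33) and 0.78 (SE 0.24), and Hoxb3 was at -0.21 in siNT cells. Gm13713 and Lrrc55, an auxiliary subunit of potassium channels, differed by 1.90 and 1.88, and Lrrc55 was at 0.13 in siNT cells. Zeb2os and Zeb2, a repressor of epithelial genes, differed by 0.68 (SE 0.25) and 1.06 (SE 0.40). Pde8b, a phosphodiesterase, and St3gal5, the GM3 ganglioside synthase, were higher with their antisense RNAs, with a log2 fold change of 1.70 (SE 0.45) for Pde8b. The paired St3gal5 probe cleared background on 0 of 3 DMSO arrays, and POVPC arrays were at least 2.27-fold higher, and another St3gal5 probe gave a log2 fold change of 0.57. Sptbn1, a spectrin of the membrane skeleton, and its antisense Gm29237 differed by 1.37 and 1.65. Bdnf, a neurotrophin, and Qk, an RNA-binding protein of smooth muscle splicing, were lower with theirs, at -0.78 and -1.01 beside -0.94 for the Bdnf antisense RNA and -0.80 for that of Qk.

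Among pairs that went apart, Gm15564 and Parp9 overlap on chromosome 16 between 35966753 and 35972605. Gm15564 was 12.84, 14.39 and 12.77 in DMSO and 11.25, 11.20 and 11.78 in POVPC, a log2 fold change of -1.93 (SE 0.88). Parp9, an interferon-induced ADP-ribosyltransferase family member, was 3.19, 2.97 and 3.74 in DMSO and 4.35, 3.86 and 4.22 in POVPC, a log2 fold change of 0.84 (SE 0.40). Neither pair of groups overlapped, though Parp9 was well above background on only 1 DMSO and 2 POVPC arrays. Ets1, a transcription factor of vascular cells, was lower by 1.72 on the log2 scale (-1.72, SE 0.50), and Gm27240 in its intron, not well above background on any DMSO array and on only 1 POVPC array, was at least 1.31-fold higher. Ptn (pleiotrophin, a growth factor) was 13.46, 13.34 and 13.32 in DMSO and 14.04, 14.14 and 14.09 in POVPC. It was among the tightest of the pairs, with a log2 fold change of 0.72 (SE 0.15), 0.69 without DMSO replicate 3 and 0.77 within slide 2, while AK043793 in its intron was at -0.62 (SE 0.24). In Hnrnpl and Dennd6a the antisense RNA was lower (-0.77 and -0.74) and the mRNA higher (0.64 and 1.06).

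**Figure D3:**
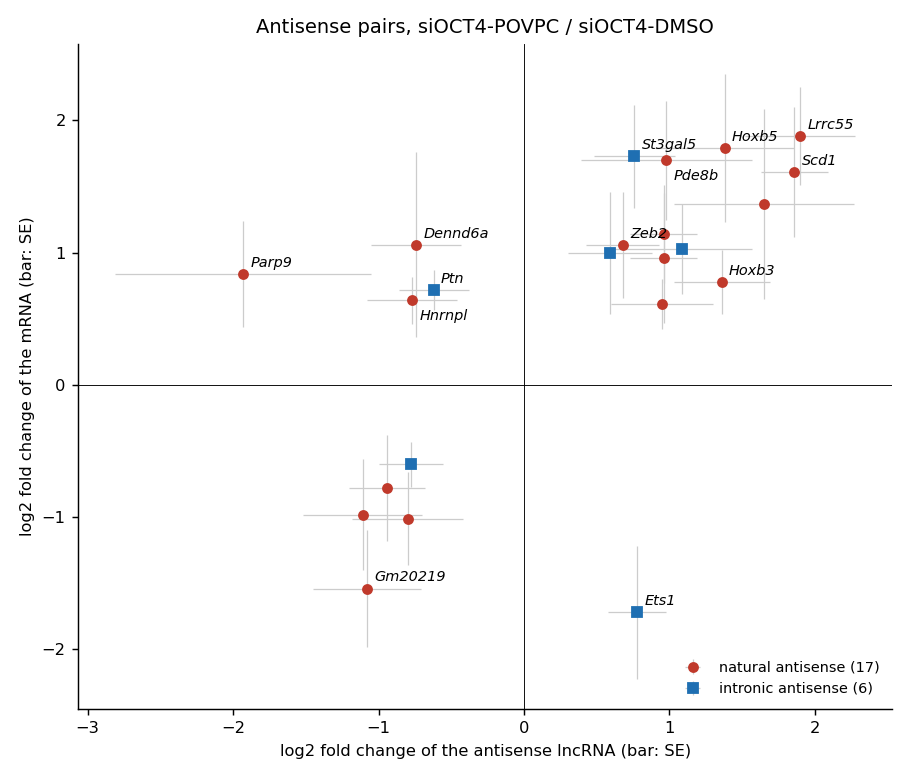
Log2 fold change (siOCT4-POVPC over siOCT4-DMSO) of the antisense lncRNA on the horizontal axis and of its mRNA on the vertical axis, with standard errors as bars, for the 23 pairs the study lists (circles, natural antisense; squares, intronic antisense). 13 pairs lie in the upper right, 5 in the lower left, 4 in the upper left and Ets1 alone in the lower right.

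Of 29 genes of the extracellular matrix, 15 had a named probe, 11 of them listed as higher and 4 as lower in siNT cells, and 7 passed the unadjusted threshold upward and 0 downward, with a median of 0.27. The 7 were without overlap between the groups, beside 14.6% of all mRNA probes with every POVPC array above every DMSO array. Among all named mRNA probes listed as higher, 23.5% passed upward. After removal of DMSO replicate 3, 6 passed upward and 1 downward with a median of 0.66, and within slide 2 the median was 0.49. Col1a1, the alpha 1 chain of type I collagen, was 10.88, 10.29 and 8.42 in DMSO and 11.81, 11.56 and 11.71 in POVPC. DMSO replicate 3 was far below the other 5 arrays, and the log2 fold change of 1.83 (SE 0.48, adjusted p = 0.236) was 1.11 without it and 3.28 within slide 2. P3h3 and P3h4, which act on new collagen chains in the endoplasmic reticulum, differed by 1.88 (SE 0.53) and 0.91 (SE 0.31). Bmp1, the procollagen C-proteinase, differed by 1.1 (SE 0.32), Fbln2, fibulin 2, by 1.11 (SE 0.29) and Mrc2, a collagen uptake receptor, by 1.03 (SE 0.22). Spp1, osteopontin, was 4.95, 5.62 and 2.38 in DMSO and 6.18, 5.97 and 6.07 in POVPC. Its log2 fold change of 1.75 (SE 0.63) was 0.78 without DMSO replicate 3, the only one of the 6 arrays on which it did not clear background. Dpt, dermatopontin, was at 0.27 in knockdown and 2.13 in siNT cells. The contractile list had 6 named probes of 29 genes, and 0 passed in either direction, with a median of -0.20. Without DMSO replicate 3 the count was also 0 and the median -0.06, within slide 2 the median was -0.27, and with 75th percentile scaling 1 of the 6 passed downward. Tagln was 4.35, 4.72 and 4.77 in DMSO and 3.99, 4.40 and 4.11 in POVPC, with overlap, a log2 fold change of -0.44 (SE 0.19, adjusted p = 0.354). These signals were under the median of each array. Smtn was at 0.21 (SE 0.23).

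The homeobox and mesenchymal list of transcription factors had 15 named probes of 23 genes, and 9 passed the unadjusted threshold upward and 1 downward, with a median of 0.78. Of the 15, 4 came from the study's pairs, which were chosen for their difference on these arrays, and 10 of the other 11 were listed as higher in siNT cells, so the list was largely selected for its direction. Without the 4, 6 of 11 passed upward and 0 downward, with a median of 0.70. Those 11 gave 4 and 0 with a median of 0.49 when DMSO replicate 3 was left out, and a median of 0.47 within slide 2. Prrx1, a factor of mesenchymal and fibroblast identity, had 2 probes. The first was 10.66, 10.25 and 9.40 in DMSO and 11.27, 11.16 and 11.22 in POVPC, without overlap. The log2 fold changes were 1.12 (SE 0.28) and 0.78 (SE 0.23). Osr1, which marks connective tissue progenitors, differed by 1.16 (SE 0.31), and Tlx2 by 1.15 (SE 0.32), from a level well above background on only 1 DMSO array. Hoxb6 differed by 0.70 (SE 0.29) and Nkx2-3 by 0.79 (SE 0.34), the latter with overlap. Ets1, of the pairs above, was the member past the threshold downward.

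Named genes of ribosome assembly and translation passed in the downward direction only, and at the unadjusted threshold only. Of all 414 named probes listed as lower in siNT cells, 0 passed upward, so this direction was not particular to these lists. Of 26 genes on the ribosome biogenesis list, 13 were named, all listed as lower in siNT cells, and 12 were lower in knockdown cells, with 8 past the unadjusted threshold downward and 0 upward and a median of -0.71. Without DMSO replicate 3, 6 passed and the median was -0.65, and within slide 2 it was -0.81. Nop58, a core protein of the snoRNPs that methylate ribosomal RNA, was 14.41, 15.26 and 14.91 in DMSO and 13.89, 13.61 and 13.73 in POVPC. The groups did not overlap, and here DMSO replicate 3 lay between the other DMSO arrays. Its log2 fold change of -1.12 (SE 0.35, adjusted p = 0.267) was -1.09 without it. Utp15, of the small subunit processome, was at -1.0 (SE 0.32), Nifk, a nucleolar RNA-binding protein, at -0.98 (SE 0.39), Twistnb, a subunit of RNA polymerase I, at -0.90 (SE 0.26) and Gnl2, a nucleolar GTPase, at -0.71 (SE 0.23). Pprc1 and Riox1 were at -0.82 and -0.81 and Urb1 at -0.61, while Gtpbp4 (-0.55) and Polr1c (-0.46) stayed under the fold limit. Of 16 named probes of ribosomal proteins and translation factors, 14 were listed as lower in siNT cells. In knockdown cells 14 of the 16 were lower, with 6 past the threshold downward, 0 upward and a median of -0.43. Of all named probes listed as lower, 29.2% passed downward. Etf1, the factor that ends translation at stop codons, was at -1.52 (SE 0.36, adjusted p = 0.23), and Rps3, a protein of the small subunit, was 12.97, 13.49 and 13.56 in DMSO and 12.63, 12.64 and 12.67 in POVPC, without overlap (-0.70, SE 0.20). Eif3d, of the initiation factor eIF3, was at -0.65. Eif4e, the cap-binding protein, counts among the 6 but was not well above background on any of the arrays compared, and no fold is given. Nars and Eprs, given with the stress list below, are also among the 6. After removal of DMSO replicate 3, 4 of the 16 passed with the same median, beside 26.3% of all named probes listed as lower. Within slide 2 the median was -0.59.

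The list of amino acid and unfolded protein stress was split. Of 10 named probes, 7 listed as lower and 3 as higher in siNT cells, 5 passed downward and 2 upward, with a median of -0.78. Among all named mRNA probes, 29.2% of those listed as lower passed downward and 23.5% of those listed as higher passed upward. Psph, the last enzyme of serine synthesis, was 11.77, 13.59 and 12.32 in DMSO and 11.16, 10.02 and 10.69 in POVPC, without overlap (-1.94, SE 0.54, adjusted p = 0.249). Pmaip1 (Noxa), which promotes apoptosis, was at -1.89 (SE 0.49), Nars and Eprs, which charge tRNAs, at -1.21 (SE 0.48) and -0.80 (SE 0.26), and Sesn2, an amino acid sensor, at -0.75 (SE 0.30). Os9, which sorts misfolded proteins in the endoplasmic reticulum, was at 0.62 (SE 0.21), and Creb3l1, a membrane-bound factor that acts on collagen genes, at 1.03 (SE 0.33). With DMSO replicate 3 left out, the counts were the same and the median was -0.88, and within slide 2 it was -0.75.

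**Figure D4:**
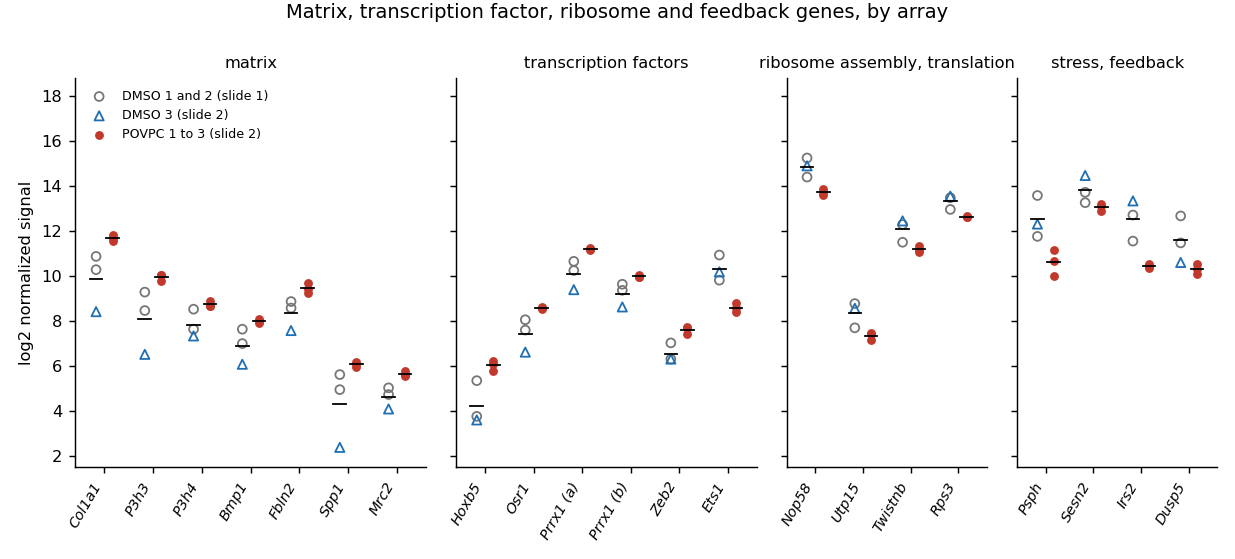
Log2 normalized signal of genes of the matrix, transcription factor, ribosome and stress lists on each siOCT4 array (grey circles, DMSO 1 and 2; blue triangles, DMSO 3; red, POVPC 1 to 3; bars, group means); (a) and (b) are separate probes of Prrx1. DMSO 3 is the lowest array in every matrix gene shown, whereas in Nop58, Utp15 and Psph it lies between the other DMSO arrays.

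Immediate early, feedback and cytokine genes were for the most part listed as lower in siNT cells. Of 13 named early response genes, 12 were listed as lower in siNT cells, and in knockdown cells 3 passed downward and 0 upward, with a median of -0.33 (-0.46 without DMSO replicate 3 and -0.05 within slide 2). Among all named mRNA probes listed as lower, 29.2% passed downward and 0% upward, so neither count was particular to this list. Irs2, an adaptor of insulin signalling, was 11.56, 12.72 and 13.35 in DMSO and 10.47, 10.52 and 10.38 in POVPC. The POVPC arrays were close together and below every DMSO array (-2.09, SE 0.51, adjusted p = 0.235). Dusp5, a phosphatase of ERK, was at -1.26 (SE 0.48), -1.74 without DMSO replicate 3 and -0.28 within slide 2, so its size rested on the slide 1 arrays. Spry2, a brake of receptor tyrosine kinases, was at -0.72 (SE 0.20). Of 19 named probes of the NF-kB and cytokine list, 14 were listed as lower and 4 as higher in siNT cells. On this list 2 passed downward (Csf2 and Cxcl10) and 1 upward (Il7, at 0.68), with a median of -0.07. Il7 was not listed as changed in siNT cells. Its name comes from the study's pairs for Oct4 knockdown against siNT in DMSO, chosen in part on the same siOCT4-DMSO arrays. Without DMSO replicate 3, 4 passed downward and 1 upward, with a median of -0.03, and within slide 2 the median was 0.12. With 75th percentile scaling 4 passed downward and 1 upward. Csf2, the growth factor GM-CSF, was 12.58, 14.10 and 11.14 in DMSO and 10.62, 10.58 and 10.71 in POVPC (-1.97, SE 0.77, adjusted p = 0.326), against -3.66 in siNT cells. Cxcl10, an interferon-induced chemokine, was well above background on 1 DMSO and no POVPC array, and no fold is given. In siNT cells its log2 signal was 5.57, 8.27 and 6.48 in DMSO and 2.33, 2.36 and 2.51 in POVPC. Ccl5, a chemokine, was 10.86, 11.35 and 9.33 in DMSO and 10.74, 11.41 and 11.26 in POVPC. Its groups overlapped (0.63, SE 0.43), where siNT cells gave -1.90, and the interaction of 2.52 (SE 0.61) had an adjusted p of 0.562. Tnfrsf18 (GITR) was at 0.57 (SE 0.20) in knockdown and -0.67 in siNT cells, with an interaction of 1.23 (SE 0.28, adjusted p = 0.562). Of 9 named interferon-stimulated probes 1, Parp9, came from the pairs chosen on these arrays. Of the other 8, all listed as lower in siNT cells, 3 passed downward and 0 upward, with a median of -0.38 (-0.39 without DMSO replicate 3 and -0.51 within slide 2), namely Cxcl10, Mb21d1 (cGAS, a sensor of cytosolic DNA) at -1.56 (SE 0.43) and Parp10 at -0.71 (SE 0.23).

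The interaction was tested over all probes. 0 of 20625 mRNA and 0 of 33880 lncRNA probes passed an adjusted p of 0.05 in limma, with smallest adjusted p of 0.157 and 0.135, and 8.1% and 8.53% had an unadjusted p under 0.05. With slide as a block, 871 mRNA and 1503 lncRNA probes passed, a fit in which the POVPC effect in knockdown cells rests on DMSO replicate 3 as the lone DMSO array beside the POVPC arrays. Whether the POVPC response of single probes differed between siNT and Oct4-deficient cells thus depended on how slide was treated.

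**Figure D5:**
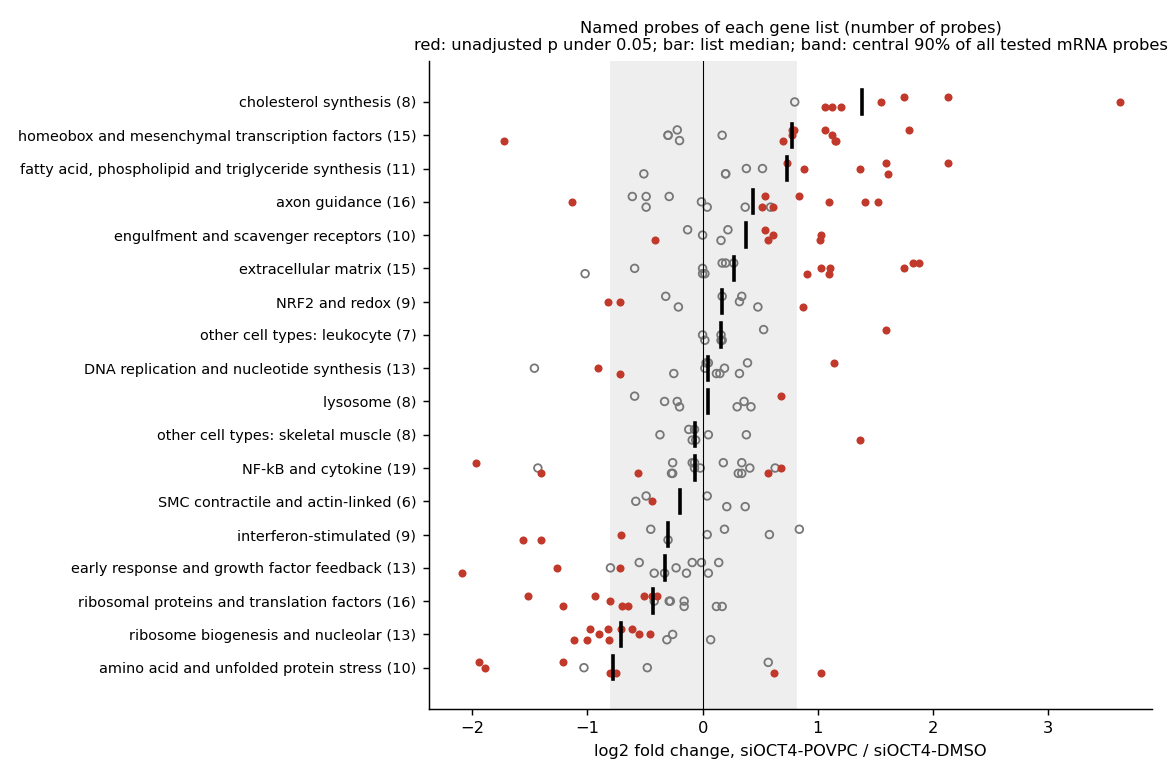
Log2 fold change (siOCT4-POVPC over siOCT4-DMSO) of each named probe in the lists with 5 or more probes, with the number of probes beside each list (red, unadjusted p under 0.05; open grey, others; black bar, median; grey band, central 90% of all tested mRNA probes). Medians run from 1.38 for cholesterol synthesis to -0.78 for amino acid and unfolded protein stress.

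On the axon guidance list, whose members steer cell migration also outside neurons, 16 probes were named, 14 of them listed as higher in siNT cells. 5 passed upward and 1 downward, with a median of 0.44 (5 and 2 with 0.42 without DMSO replicate 3, and a median of 0.33 within slide 2). With 75th percentile scaling 7 passed upward and 2 downward. Of all named probes listed as higher, 23.5% passed upward. Prkca, protein kinase C alpha, differed by 1.52 (SE 0.59) and by 0.60 without DMSO replicate 3. Dpysl2, a mediator of semaphorin signals, differed by 0.84. Gnai2, an inhibitory G protein subunit, differed by 1.41 (SE 0.36), Pik3r1, the regulatory subunit of PI3 kinase, by 1.1 (SE 0.29) and Gnai1 by 0.61 (SE 0.16), the last at 11.73, 11.55 and 11.64 in DMSO and 12.41, 12.18 and 12.16 in POVPC. Its groups were tight and did not overlap, and the value was 0.61 also within slide 2. Epha7, a receptor of ephrins, had 2 probes of different transcripts that disagreed, at 0.59 (SE 0.28) and -1.13 (SE 0.25), in siNT cells too (0.72 and -0.71). Of 10 named genes of engulfment, 3 passed upward and 0 downward, with Lrp1, an endocytic receptor, at 1.02 (SE 0.37), Mrc2, above, and Pros1, a bridge between dying cells and TAM receptors, at 0.61 (SE 0.27). Axl, a TAM receptor, was at 0.57 (SE 0.24), under the fold limit, and 0.30 without DMSO replicate 3. The median of the 10, 6 of them listed as higher and 4 as lower in siNT cells, was 0.38. Without that array 1 of the 10 passed and the median was 0.18, and within slide 2 it was 0.64. With 75th percentile scaling 5 of the 10 passed upward and 0 downward. Of 9 named probes of the NRF2 and redox list, 6 listed as higher and 3 as lower, 1 passed upward, Ephx1 (0.87, SE 0.31), and 2 downward, Mafg (-0.82, SE 0.26) and Txnrd1 (-0.72, SE 0.30). The median of this list was 0.17, with 0.22 without DMSO replicate 3 and -0.03 within slide 2. Of 13 of DNA replication, 8 listed as higher and 5 as lower, 1 passed upward, Espl1 (separase) at 1.14 (SE 0.29), and 2 downward, Tyms (thymidylate synthase) at -0.72 (SE 0.20) and Nasp (a histone chaperone) at -0.91 (SE 0.24). The median of the replication list, 0.05, became 0.15 without DMSO replicate 3 and -0.47 within slide 2. Of 8 lysosomal probes, 7 listed as higher, Ctsa, a protective carboxypeptidase, passed upward at 0.68 (SE 0.23). The lysosomal median was 0.05, 0.24 without DMSO replicate 3 and -0.23 within slide 2.

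Markers of other cells gave little. The only endothelial gene with a named probe was Notch4 (0.45). Of 7 named leukocyte probes 1 passed upward, Ms4a4b, a T cell membrane protein, at 1.59 (SE 0.48). Of 4 named fibroblast probes Col1a1 passed, while Pdgfra, Thy1 and Dpt were at 0.20, -0.28 and 0.27. Of 8 skeletal muscle probes Neb, nebulin, passed upward at 1.37 (SE 0.53) with overlap between the groups, and 0.82 without DMSO replicate 3. Without that array 0 of the 8 passed. Within slide 2 Notch4 was at 1.26, and the medians were 0.20 for leukocyte, 0.41 for fibroblast and 0.33 for skeletal muscle probes, against 0.16, 0.24 and -0.07 on all 6 arrays. Most defining markers of these cells have no named probe here, and the part of other cells in the result was not tested.

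Among the other named mRNA probes without overlap between the groups, Capn9, a calpain protease, was 5.99, 5.34 and 4.89 in DMSO and 7.67, 7.20 and 7.29 in POVPC, a log2 fold change of 1.98 (SE 0.42, adjusted p = 0.194) that was 1.72 without DMSO replicate 3. Cdh13, T-cadherin, was 14.50, 13.44 and 10.60 in DMSO and 14.79, 14.64 and 14.80 in POVPC. DMSO replicate 1 was close to the POVPC arrays and replicate 3 far below, so the value of 1.90 (SE 0.75) became 0.78 without replicate 3. On the lower side, Eid3, a subunit of the SMC5/6 complex, was 9.19, 11.09 and 10.76 in DMSO and 6.76, 6.69 and 6.53 in POVPC. The groups were well apart, with a log2 fold change of -3.69 (SE 0.68, 12.9-fold, adjusted p = 0.177), -3.49 without DMSO replicate 3 and -4.10 within slide 2. Lrch3, a leucine-rich repeat protein, was 9.79, 12.42 and 8.80 in DMSO and 7.07, 6.81 and 6.96 in POVPC (-3.39, SE 0.76), and Mrpl24, of the mitochondrial ribosome, 9.21, 11.95 and 9.68 in DMSO and 7.68, 7.36 and 7.50 in POVPC (-2.77, SE 0.58). In both, DMSO replicate 2 was the highest array. Dock10, a guanine nucleotide exchange factor, was at -2.47 (SE 0.69) and -1.63 without DMSO replicate 3, and 1700001P01Rik at -2.17 (SE 0.80) and -1.58. A further 5 genes were not well above background on any POVPC array and have only a bound. Npc1l1, a cholesterol uptake transporter, was at least 5.87-fold lower, Dppa3, a factor of germ and pluripotent cells, at least 4.85-fold, Olfr429, an odorant receptor, at least 4.34-fold, Adam30, a metalloprotease family member, at least 2.71-fold and Slc35d3, a nucleotide sugar transporter, at least 1.44-fold (adjusted p from limma 0.253, 0.23, 0.236, 0.253 and 0.235).

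Of probes without a name that were measured in both groups, the largest differences were wide in DMSO. ASMM10AP1B108518018V4 was 9.54, 6.36 and 3.45 in DMSO and 10.24, 10.72 and 10.77 in POVPC (4.12, adjusted p = 0.286), and ASMM10AP1B100168662V4 was 6.92, 9.09 and 11.37 in DMSO and 4.47, 4.23 and 3.87 in POVPC (-4.93, adjusted p = 0.266). In both, DMSO replicate 1 lay nearest to the POVPC arrays and replicate 3 farthest.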

How the data were processed

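Total RNA was labelled with Cy3 and hybridised to Arraystar mouse lncRNA/mRNA arrays. Per the file headers and the submitters' processing notes, the deposited intensity values came from Agilent Feature Extraction 11.0.1.1, and the processed signal was background-subtracted and detrended there. The authors also deposited quantile-normalized log2 values for 60641 probes, used as an alternative; the fold changes and p-values in the study's tables were not used as results. From the intensities, outlier spots were left out, signals under 5 were set to 5 and log2 values were quantile normalized over 12 arrays. Probes well above background on 3 or more arrays were tested with limma 3.58.1 in R 4.3.3, with a mean for each of 4 groups and Benjamini-Hochberg adjustment over both classes. A call needed 1.5-fold or more with an adjusted p under 0.05. 1 lncRNA probe had no value in a group. A probe not well above background on any array of a group was given a bound, from the mean of the brighter group and, in the dimmer, the higher on each array of its own value and of the lowest signal well above background. No fold was given where the bound was under 1.

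Names and coordinates (GRCm38) came from tables that pair probe and gene; 224 of 224 transcripts of the study's antisense pairs matched 1 probe by recomputed t-test p and fold to 4 significant digits, and 910 of 912 named mRNA probes overlapped the RefSeq gene of that symbol. Named were called probes, the 10 largest rises and falls of mRNA (6 and 4 of lncRNA) among named probes with an unadjusted p under 0.05 and no overlap, list members past that p, the pairs, and up to 4 probes without a name. The members and lists were chosen with earlier results of these data known. The fit was tested on simulated data. Of the probes carried in 10 spots, 1 that is counted is not reported here by value. Alternatives were other scalings, filters, models and blocks, and each array left out. Counts of lists without the probes of the pairs were added after seeing the data.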

Additional observations from a re-analysis of the deposited data

How the results depend on the processing

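Precision was limited by 3 arrays per group. Against 1 called mRNA probe, 75th percentile scaling gave 10 (1 higher and 9 lower), normexp 0, a floor of 20 gave 3, no filter 2, probes well above background on all 12 arrays 0, a fit of the 2 groups alone 0, intensity trend with robust hyperparameters 0, the replicate block 0, the slide block 2134, slide 2 alone 6500 and the methods' t-test after adjustment 0. Against 0 called lncRNA probes, 75th percentile scaling gave 11, a floor of 20 gave 3, the slide block 2971, slide 2 alone 8832 and the adjusted t-test 3. At an unadjusted p, 2182 mRNA probes became 1169 with normexp, 5450 with the slide block, 7419 within slide 2 and 1348 by the t-test. For lncRNA, 2723 became 4225 with 75th percentile scaling, 883 with normexp, 1771 with a floor of 20, 8100 with the slide block, 10507 within slide 2 and 1642 by the t-test. The interaction, at 0 and 0, gave 871 mRNA and 1503 lncRNA probes with the slide block. Both slide settings set the POVPC arrays against DMSO replicate 3 alone, and by construction the gap between replicate 3 and replicates 1 and 2 is not in their spread; other causes were not tested. Leaving out 1 array gave 0 to 4 called mRNA probes (0 without DMSO 2 or POVPC 3 of the knockdown, 4 without siNT-POVPC 3) and 0 to 8 lncRNA probes (8 without siNT-POVPC 3), and 1467 to 3507 mRNA and 1907 to 4359 lncRNA probes unadjusted, the highest without siOCT4-DMSO 1. The interaction stayed at 0 in each. To look for pairing, the mean of each group was subtracted probe by probe, and the remainders of same-numbered arrays were correlated. These correlations were -0.20, -0.03 and -0.06 between the groups compared and 0.04, -0.01 and -0.18 between the siNT groups. They were 0.15, 0.36 and -0.01 between the DMSO groups and 0.07, 0.08 and 0.10 between the POVPC groups. In no comparison were all 3 over 0.1, so the numbers were not taken to pair them, and the replicate block gave 2264 mRNA and 2849 lncRNA probes unadjusted. Direction reversed for Eif4e and AK156145 with a floor of 20 (0.01 each), where both groups lie near the floor.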

Other observations

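The array also carries 50 probes in 10 spots each, outside the deposited table of values, and their analysis was chosen after seeing the data. They were not selected for any change. Of 47 tested, 5 were higher and 2 lower by 1.5-fold or more when p was not adjusted, 0 passed after adjustment in limma (smallest adjusted p 0.251) and the median log2 fold change was 0.03. Bambi, a pseudoreceptor that dampens TGF-beta signals, was 9.54, 8.78 and 7.71 in DMSO and 12.01, 11.26 and 11.70 in POVPC, without overlap (2.98, SE 0.84, adjusted p = 0.251), against 1.29 in siNT cells. Its interaction of 1.69 (SE 1.19) did not pass, with an adjusted p of 0.72 from limma. E2f1, a transcription factor of cell cycle entry, was 6.79, 5.60 and 4.95 in DMSO and 7.25, 7.30 and 6.97 in POVPC (1.39, SE 0.47). Taf1a, of the RNA polymerase I initiation complex, was 9.44, 10.18 and 10.70 in DMSO and 8.97, 8.94 and 8.95 in POVPC, tight and below every DMSO array (-1.16, SE 0.39). Rab5a, of early endosomes, was at -0.65, Gamt, of creatine synthesis, at 0.88 and Rps4l at 0.62. Apoe, the apolipoprotein of cholesterol efflux, was at -0.02 in knockdown cells and -1.16 in siNT cells. The Apoe interaction of 1.14 (SE 0.53) did not pass either, with an adjusted p of 0.602 from limma. Actb was at 0.66 in knockdown cells, with overlap.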
